A study of Dugesia japonica with 157 samples.

Results

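The upper interior and the lower interior are neighbouring layers inside the body of the planarian Dugesia japonica, a freshwater flatworm. They were taken by section number from a dorsal-to-ventral series of 28 sections, the upper interior being sections 10 to 13 and the lower interior sections 15 to 18, with section 14 left between them. These are 8 of the 157 sections of the whole series. A section was kept only with at least 20% of the median total of all 28, which removed section 18 and left 4 upper and 3 lower sections. The table has 25566 rows, each called a gene here, and 16772 of them were tested, a gene needing a count of 5 in no fewer than 3 of these 7 sections.

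All sections came from strain AF and from the whole animal, with no treatment that sets them apart. Polyadenylated RNA was extracted from each section with Direct-TRI and sequenced with Lasy-Seq, a method for many small RNA samples. The labels order 28 sections from dorsal to ventral, 78 from anterior to posterior and 51 from right to left. They name no animals and no replicate series, so neighbouring sections stand in for replicates, and each p-value measures only the spread between sections, which may be technical.

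In planarians the brain and a pair of nerve cords lie on the ventral side, a branched gut fills much of the interior, and muscle layers lie beneath the epidermis. Bone morphogenetic protein signalling from the dorsal side is known to maintain dorsal and ventral identity, and a muscular pharynx sits in the trunk. A section across the body mixes several of these tissues. In such bulk sections, fewer cells of a type and less RNA per cell cannot be told apart. The deposited tables hold identifiers without gene names, so no role is given to any gene, and lists of known tissue markers could not be matched.

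Depth was high in most of the interior. The upper interior held 1643662, 13827866, 15066237 and 26807303 estimated counts in sections 10 to 13, and the lower interior held 17882322, 15269378 and 14135150 in sections 15 to 17. Section 10 was thus far shallower than the other 6. The mean total was 14336267 ± 10300000 in the upper interior (SD, n = 4) and 15762283 ± 1920000 in the lower interior (SD, n = 3), and an exact two-sided permutation test gave p = 0.686, where the smallest p this design allows is 0.0571. The difference was -1426016, and without section 10 it was 2804852. Genes with at least 1 count numbered 13992, 17193, 16833 and 17955 in the upper sections and 17415, 17067 and 17434 in the lower sections (exact two-sided permutation p = 0.629). Across the 28 dorsal-ventral sections, totals ran from 275287 to 26807303 with a median of 2325710.

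Most genes had fitted changes near 0. Levels are given as CPM, counts scaled to library size with TMM factors, and a log2 fold change is upper minus lower, so that a negative value means lower in the upper interior. The median log2 fold change over the 16772 genes was -0.01, its 5th and 95th percentiles were -1.21 and 1.15, and 85.9% of genes lay within 1 log2 unit of 0. The standard error of these values had a median of 0.47. Fold changes of at least 2-fold were fitted for 1154 genes higher and 1209 genes lower in the upper interior. The correlation of log2(CPM + 1) across genes averaged 0.923 over the 6 pairs within the upper interior, 0.953 over the 3 pairs within the lower interior and 0.932 over the 12 pairs between them. Without section 10 the mean was 0.953 within the upper interior and 0.948 over the 9 remaining pairs between the layers. Genes are not independent replicates, and these values are given as a description.

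Against this background, 13 genes were lower in the upper interior and 0 were higher, at an adjusted p under 0.05 in edgeR's quasi-likelihood test. The 13 are 0.0775% of the genes tested. At an unadjusted p under 0.05 there were 522 genes higher and 490 lower, together 6.03% of those tested, and DESeq2 called 45 higher (0.269%) and 79 lower (0.472%). Limma-trend kept 3 of the 13 calls, and a single edgeR fit over all kept dorsal-ventral sections kept 0. The smallest adjusted p of a gene higher in the upper interior was 0.0826. All 13 called genes had lower CPM in every upper section than in any lower section. Among all genes tested, 4.61% were separated in this direction and 3.18% in the other.

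The 13 changes were large, but size alone did not set these genes apart. Over all genes tested, changes of at least 4-fold were fitted for 256 genes lower and 234 higher in the upper interior. Among the 13, the smallest was a log2 fold change of -1.90 and the median was -2.74. The 12 with counts in both layers ranged from -6.01 to -1.90. With the remaining gene at its bound the median was the same, -2.74. Mean levels of the 13 ran from 0 to 68.8 CPM in the upper interior (median 10.9) and from 5.39 to 288 CPM in the lower interior (median 67.1). Each was the only row with its identifier's first part. They were not rare transcripts as a group: their mean levels over the 7 sections fell between the 28.6th and the 95.4th percentile of the genes tested, with a median at the 84.4th.

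**Figure D1:**
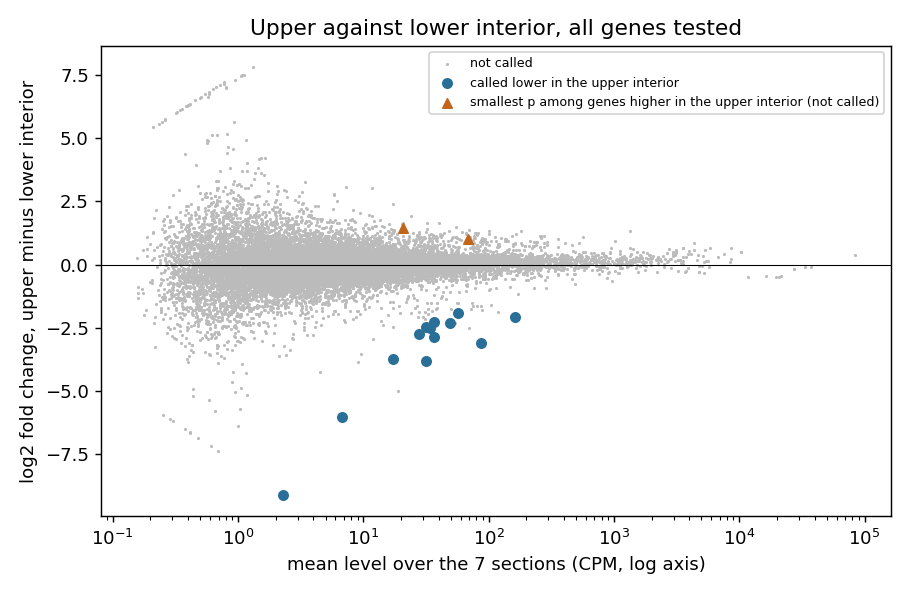
Each point is 1 of the 16772 genes tested, with its mean level over the 7 kept sections in CPM on a log axis and its log2 fold change, upper minus lower interior, on the vertical axis. The 13 genes that edgeR called lower in the upper interior (blue) sit at -1.90 or below, the triangles mark the pair of genes with the smallest edgeR p in the other direction, not called by edgeR, and the slanting rows at the left edge are mostly genes with 0 counts in one layer, whose fitted fold change depends on the prior count.

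The calls rested on few sections. They numbered 0 without section 11, 0 without section 12, 4 without section 13, 1 without section 16 and 1 without section 17, against 15 without section 10 and 21 without section 15. With section 18 included there were also 0 calls, and 300 genes at an unadjusted p under 0.05. All fitted log2 fold changes of the 13 genes stayed negative in every one of these fits that tested them. The genes were chosen for that sign in these sections, and their layers did not overlap. Leaving out 1 section could therefore hardly reverse it.

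Among called genes that averaged 10 CPM or more in 1 of the layers, DjGI018140_001 had the largest fold change. It stood at 0, 0, 0 and 0.582 CPM in upper sections 10 to 13, at 0 in section 14, and at 9.70, 17.4 and 19.6 CPM in lower sections 15 to 17. Only section 13 of the upper interior held any of its counts, 13 in all, against 626 in the lower interior. Its mean was 0.145 ± 0.291 CPM in the upper interior (SD, n = 4) and 15.6 ± 5.19 CPM in the lower interior (SD, n = 3), a log2 fold change of -6.01 ± 0.80 (SE; edgeR adjusted p = 0.0201). The call was lost under 7 of 19 alternative settings.

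DjGI018616_001 came next. It had 2.98, 2.42, 6.42 and 6.36 CPM in the upper sections, 19.4 CPM in section 14 and 21.8, 68.2 and 116 CPM in the lower sections. The layers did not overlap, the level in section 14 was close to that of section 15, and the lower sections spread widely. The means were 4.54 ± 2.14 CPM (SD, n = 4) in the upper interior and 68.5 ± 46.8 CPM (SD, n = 3) in the lower interior, and the log2 fold change was -3.83 ± 0.52 (SE; edgeR adjusted p = 0.0201). This call was lost under 9 of 20 alternative settings.

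A further gene of the 13, DjGI016188_001, singled out after its values were seen, had 0 counts in all 4 upper sections. It had 215 counts in the lower interior, at 3.04, 4.67 and 8.45 CPM in sections 15 to 17. Against a floor of 3 counts over the upper interior, it was at least 82.9-fold lower there; the floor covers counting error only. This gene and DjGI018140_001 met the filter of 5 counts in 3 sections only with the lower sections, the layer where they are high, so their test is conditioned on that layer; the other 11 met it in the upper sections alone. The edgeR call of DjGI016188_001 (adjusted p = 0.0417) was lost under 8 of 14 alternative settings.

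No gene passed edgeR's test as higher in the upper interior. The pair with the smallest edgeR p in that direction is described here, and DESeq2 called both (adjusted p = 4.62e-05 for DjGI014686_001 and 0.00117 for DjGI005275_001). In edgeR, DjGI014686_001 also passed with no filter on low counts (adjusted p = 0.0444) and with the section total as a covariate (0.0499). DjGI014686_001 had 25.4, 27.9, 36.5 and 25.1 CPM in the upper sections, 29.6 CPM in section 14 and 9.77, 11.5 and 10.3 CPM in the lower sections. The layers did not overlap, and section 14 was at the level of the upper interior. The means were 28.7 ± 5.35 CPM (SD, n = 4) and 10.5 ± 0.86 CPM (SD, n = 3) in the upper and lower interior, with a log2 fold change of 1.45 ± 0.25 (SE; edgeR adjusted p = 0.0826). DjGI005275_001 had 83.6, 91.4, 99.8 and 76.5 CPM in the upper sections, 66.8 CPM in section 14 and 38.1, 42.7 and 50.5 CPM in the lower sections, a log2 fold change of 1.01 ± 0.20 (SE; edgeR adjusted p = 0.161). In the outer dorsal sections (n = 5) DjGI014686_001 averaged 55.5 ± 30.4 CPM and DjGI005275_001 258 ± 95.6 CPM, against 28.6 ± 17.4 and 66.8 ± 32.3 CPM in the outer ventral sections (SD, n = 8), and neither difference passed (edgeR adjusted p = 0.999 and 0.133).

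**Figure D2:**
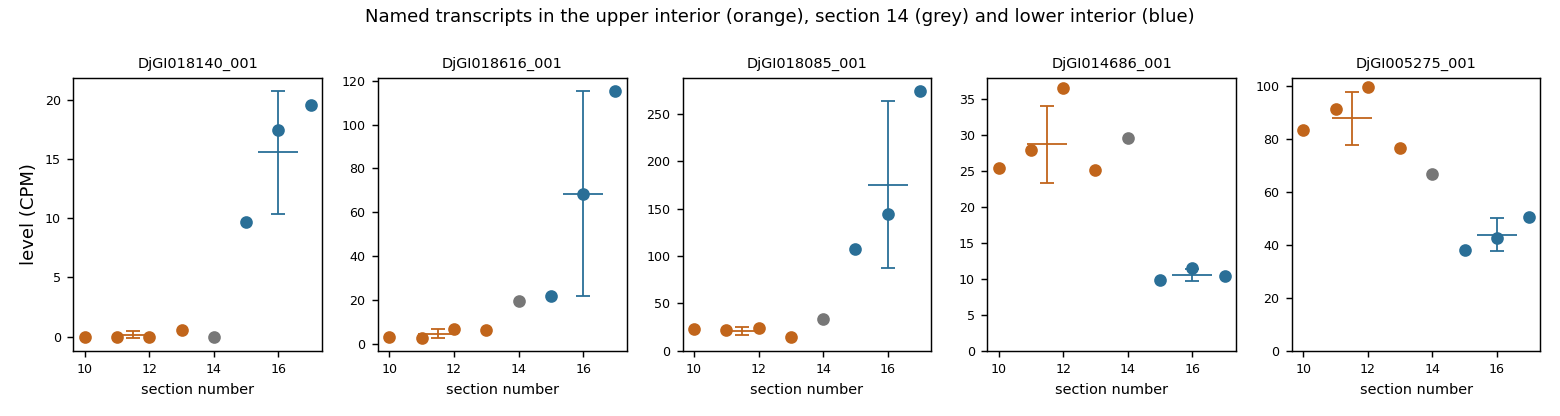
CPM of 5 genes in upper interior sections 10 to 13 (orange), section 14 (grey) and lower interior sections 15 to 17 (blue), with the mean and SD of each layer as crossbars; vertical scales differ between panels. The 3 panels on the left are genes called lower in the upper interior and the other two are genes higher in the upper interior that edgeR did not call and DESeq2 did.

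Within the lower interior the levels of the 13 genes differed with position. All 13 had their lowest level of the layer in section 15, and 12 of them had a higher level at each step through sections 16 and 17. The share of all genes tested that did the same is not given here, so this is a description of the 13 only. For these 13 genes, chosen for a difference between the layers, section 14 stood nearer to the upper interior. All 13 lay below every lower section there, 8 were inside the range of the upper sections, 4 above it and 1 below it. Over all genes tested, the correlation of log2(CPM + 1) of section 14 averaged 0.914 with the upper sections and 0.911 with the lower sections. The values ran from 0.888 to 0.925 with the upper sections and from 0.904 to 0.919 with the lower sections. The upper mean includes shallow section 10, which correlated at only 0.877 to 0.895 with the other 6 sections. A mean without section 10 is not given here, so the similar means do not place section 14 between the layers. On means of log2(CPM + 1), the median of the 13 genes in section 14 was 8.37% of the way from the upper mean to the lower mean. Summed over the 13 genes, the counts, scaled to the section total alone (raw CPM), were 184, 142, 142 and 175 in upper sections 10 to 13, 241 in section 14 and 571, 852 and 1460 in lower sections 15 to 17. The sum leans on its most abundant members, DjGI012341_001 with 26.3% of it in the lower interior and DjGI018085_001 with 16.0%; the first, named here after its values were seen, lost its call under 12 of 20 alternative settings. Without these 2 genes the other 11 summed to 88.2, 70.7, 79.7 and 110 raw CPM in the upper sections, 136 in section 14 and 332, 528 and 806 in the lower sections.

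The sum was higher still in the first outer ventral sections and low again in the last. It was 2460, 1980 and 2360 raw CPM in sections 19, 20 and 21, lay between 1020 and 1170 in sections 22 to 24, and was 469 in section 25 and 176 in section 26. Section 26 was also shallow, at 27.9% of the median total. Its sum lay within the 112 to 257 raw CPM of the 7 sections dropped for a low total. The part of depth in its low sum was not tested. On the dorsal side, kept sections 4, 5, 7, 8 and 9 ran from 160 to 252 raw CPM, close to the upper interior. The section with the highest CPM was one of sections 19 to 21 for 9 of the genes, section 17 for 3 and section 24 for 1. In every one of the 13 genes section 26, the most ventral section kept, was below section 17.

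Section 18, counted by its number to the lower interior but dropped for its total of 295459 counts, did not share this profile. Its 13 genes summed to 43 counts, or 146 raw CPM (exact Poisson 95% interval 105 to 196, counting error only), and 10 of the 13 had 0 counts. Its neighbours stood at 1460 in section 17 and 2460 in section 19. The sum in section 18 was within the range of the 7 dropped sections, 112 to 257 raw CPM. Its correlation across genes was 0.425 with section 17 and 0.515 with section 19, and 0.520 to 0.555 with the 6 other dropped sections. Its low total and its profile moved together, and the part of either in the lost calls was not tested.

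**Figure D3:**
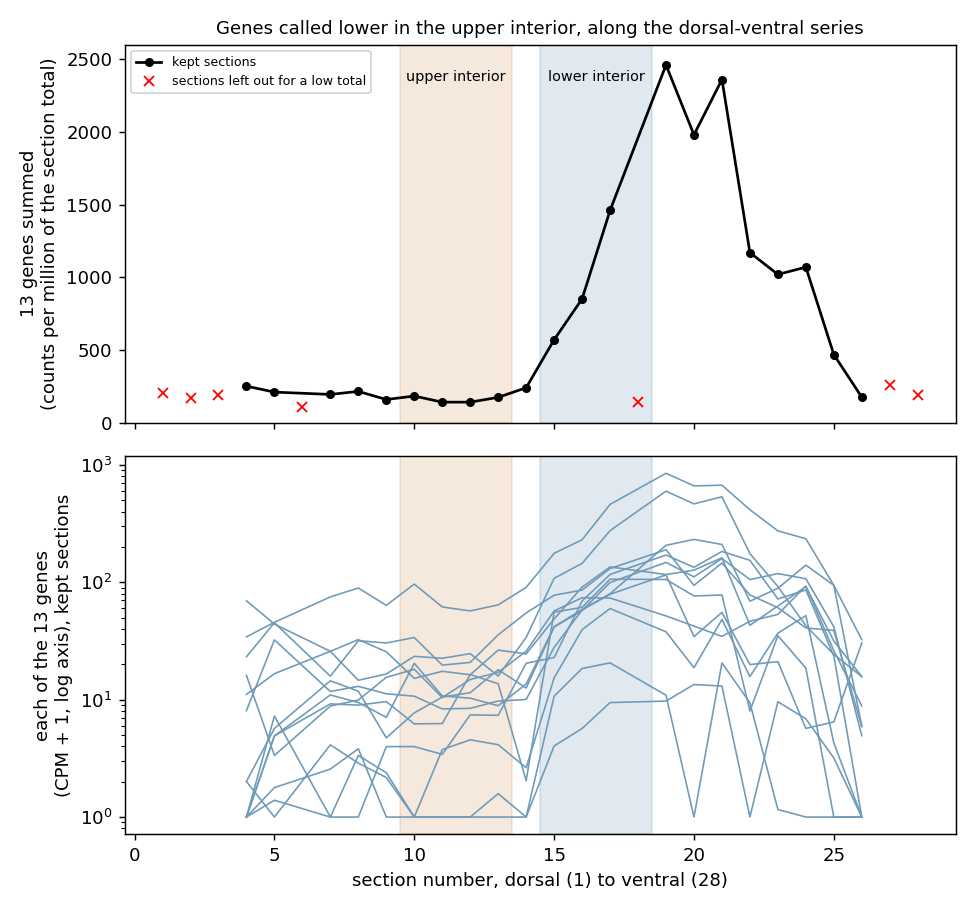
Above, the 13 genes summed, in raw CPM (counts scaled to the section total), in the kept sections (black) and in the 7 sections left out for a low total (red crosses); below, each of the 13 genes as CPM + 1 on a log axis in the kept sections. The sum was 142 to 184 in the upper interior and 571 to 1460 in the kept lower sections, was highest in section 19 at 2460, and was 146 in dropped section 18.

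The outer sections gave a comparison of the same measure in sections that the interior comparison did not use. It set 5 kept dorsal sections (4 to 9) against 8 kept ventral sections (19 to 26). Both groups border the interior in the same series. They are therefore not an independent check of genes chosen in the interior. All 13 genes had a negative log2 fold change, dorsal minus ventral, with a median of -2.67 and a range of -5.66 to -1.01. Over all 16279 genes tested there, the median was 0.04 and 48.2% were negative. Of the 13, 3 were called lower in the dorsal sections and 9 had an unadjusted p under 0.05, all in that direction, where 2.67% of all genes lay. Of all genes tested there 0.104% were called lower and 0.0614% higher in the dorsal sections, together 0.166%. With DESeq2 size factors the split over all genes was 5 higher and 14 lower, against 10 and 17. DjGI018616_001 averaged 1.85 ± 2.78 CPM in the dorsal sections (SD, n = 5) and 102 ± 68.1 CPM in the ventral sections (SD, n = 8), a log2 fold change of -5.66 ± 1.14 (SE; edgeR adjusted p = 0.0390). Totals ran from 623214 to 10603361 in these dorsal sections and from 648215 to 5636890 in the ventral ones, the lowest ventral total being that of section 26. With the section total as a covariate 5 of the 13 were called, and with DESeq2 size factors 2.

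Along the body, 9 of the 13 genes were higher in the anterior than in the posterior part. In the anterior-posterior series, sections 1 to 7 are not analysed here, so the anterior part of the 3 equal parts of the series is sections 8 to 26. Against the posterior part, 12 of 13 genes had a positive log2 fold change, and the 9 were called at an adjusted p under 0.05. Of all 13781 genes, 1.73% were called higher and 0.711% lower there, together 2.44%. The median was 2.31 for the 13 genes and 0.22 for all genes, of which 62.1% were positive. DjGI018140_001 averaged 14.0 ± 42.0 CPM in the anterior part (SD, n = 19), 0.766 ± 2.21 CPM in the middle part (SD, n = 26) and 0.192 ± 0.942 CPM in the posterior part (SD, n = 24). Its anterior sections ran from 0 to 178 CPM with a median of 0.836 CPM, so the anterior mean rests largely on few sections. It was detected in 10 anterior sections, 6 middle sections and 1 posterior section. Its log2 fold change of anterior over posterior was 5.47 ± 1.05 (SE; edgeR adjusted p = 0.000613).

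The highest anterior levels lay in the first sections analysed. The summed CPM of the 13 genes ran from 845 to 3780 with a median of 3210 in sections 8 to 16 (n = 9), and from 96.0 to 775 with a median of 378 in sections 17 to 78 (n = 60). This division was chosen after the values were seen and is a description. Without DjGI012341_001 and DjGI018085_001, the other 11 genes summed to 469 to 1770 CPM in sections 8 to 16 and to 41.4 to 391 CPM in sections 17 to 78. Of the 13 genes, 12 had a higher mean in sections 8 to 16, with a median ratio of 7.94. The peak of a running mean over 5 sections also lay at or before section 26 for 12 of 13 genes.

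The contrast of the middle part with the mean of the end parts comes from the same fit. It was negative for 12 of 13 genes, with a median of -1.01, and 1 gene was called lower in the middle. Of all genes, 0.261% were called lower and 1.33% higher in the middle, together 1.59%. With the section total as a covariate the split over all genes was 242 higher and 296 lower, against 183 and 36. The called gene, DjGI018085_001, averaged 45.2 ± 19.8 CPM in the middle part (SD, n = 26), 393 ± 432 CPM in the anterior part (SD, n = 19) and 55.0 ± 72.4 CPM in the posterior part (SD, n = 24), with a log2 fold change of middle over ends of -1.69 ± 0.40 (SE; edgeR adjusted p = 0.00730). The middle and posterior means were thus close, and the anterior mean stood apart with a wide spread. With the section total as a covariate this call was lost. In the interior it had 22.4, 21.5, 23.7 and 14.9 CPM in the upper sections and 107, 144 and 274 CPM in the lower sections, a log2 fold change of -3.10 ± 0.32 (SE; edgeR adjusted p = 0.00903).

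**Figure D4:**
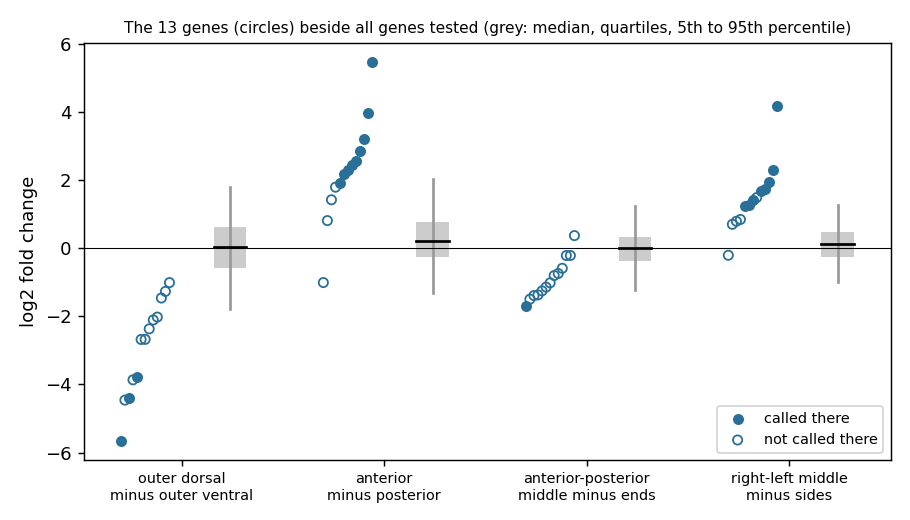
Log2 fold changes of the 13 genes in the outer dorsal-ventral comparison and in the other series (circles, filled where called at an adjusted p under 0.05), each beside all genes tested there (grey: line at the median, box at the quartiles, whisker from the 5th to the 95th percentile). All 13 were negative in outer dorsal minus outer ventral, and 12 of 13 were positive both in anterior minus posterior and in right-left middle minus sides.

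From right to left, 8 of the 13 genes were higher in the middle part. The log2 fold change of the middle part over the mean of the side parts was positive for 12 of 13 genes, with a median of 1.42, against a median of 0.12 over all 16463 genes, of which 59.3% were positive. Of all genes, 0.778% were called higher and 0.213% lower in the middle, together 0.99%. With DESeq2 size factors the split over all genes was 90 higher and 58 lower, against 128 and 35. DjGI018140_001 averaged 10.5 ± 12.9 CPM in the middle part (SD, n = 15), 0.313 ± 0.695 CPM on the right (SD, n = 8) and 0.790 ± 2.79 CPM on the left (SD, n = 14), a log2 fold change of 4.18 ± 0.81 (SE; edgeR adjusted p = 0.00218). DjGI018616_001 did not pass there (0.85, edgeR adjusted p = 0.384), nor did it in the anterior-posterior comparison (0.82, adjusted p = 0.604).

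The middle part was not uniform. The summed CPM of the 13 genes was 1920 to 2130 in sections 18 to 20 (n = 3), 706 to 1300 in sections 21 to 30 (n = 8) and 1320 to 2410 in sections 31 to 34 (n = 4), with medians of 2110, 1110 and 1370. These bands were drawn after the values were seen, and no test was made of them. Without DjGI012341_001 and DjGI018085_001 the sums were 819 to 1030, 371 to 762 and 445 to 1270 CPM, so that sections 31 to 34 overlapped sections 21 to 30. Of the 13 genes, 12 had a higher mean in sections 18 to 20 than in sections 21 to 30, 11 had a higher mean in sections 31 to 34, and 10 did so in both. The right side had a median sum of 620 (n = 8) and the left side 430 (n = 14).

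**Figure D5:**
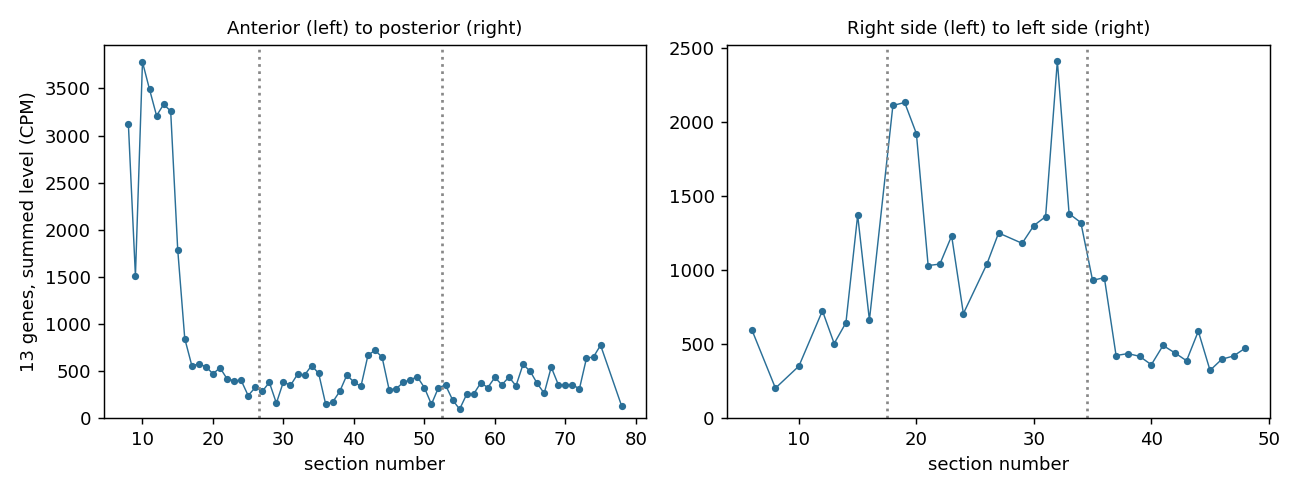
Summed CPM of the 13 genes by section in the anterior-posterior series (left) and the right-left series (right), with dotted lines at the borders of the parts; each series has its own scaling. The sum was highest at section 10 of the anterior-posterior series, at 3780, and the right-left series had high values at sections 18 to 20 and at section 32, where it reached 2410.

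The exception on both other axes was DjGI019022_001, singled out after its values were seen. In the interior it had 17.2, 9.43, 13.9 and 16.1 CPM in the upper sections, 24.9 CPM in section 14 and 55.9, 72.9 and 72.4 CPM in the lower sections. It was the gene of the 13 whose level did not increase at each step from section 15 to section 17. The layers did not overlap, and the log2 fold change was -2.28 ± 0.25 (SE; edgeR adjusted p = 0.00903). Along the body it averaged 30.5 ± 42.0 CPM in the anterior part (SD, n = 19), 37.4 ± 30.7 CPM in the middle part (SD, n = 26) and 62.2 ± 50.3 CPM in the posterior part (SD, n = 24), with an anterior over posterior log2 fold change of -1.01 ± 0.64 (SE; edgeR adjusted p = 0.543). The anterior mean hides an uneven spread, with a median of 0 CPM and detection in 9 of the 19 anterior sections. It averaged 0.75 CPM in sections 8 to 16 and 50.7 CPM in sections 17 to 78, a division chosen after the values were seen and not tested. Its right-left contrast of middle over sides was -0.20 ± 0.37 (SE; edgeR adjusted p = 0.952). It was also the gene whose dorsal-ventral level was highest in section 24.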

How the data were processed

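Values are estimated counts in 1 deposited file per body axis. In the dorsal-ventral file 130 values (0.0182%) were not whole, and all were rounded before testing. The tools named in the submitters' processing notes are Salmon (version not given in the sources used here), BWA 0.7.17-r1188, fastp 0.21.0 and bcl2fastq 2.20.0. What each did, and against which transcripts, is likewise not given in the sources used here. Another 7 columns of the anterior-posterior table, whose names match more than 1 section, were not used.

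Tests used edgeR 4.0.16 in R 4.3.3 with TMM scaling (quasi-likelihood F-test, Benjamini-Hochberg adjustment over all genes tested). In the other comparisons a gene needed 5 counts in 10% of the sections tested, and no fewer than 3 sections. Standard errors were read from the F statistic. Printed CPM use factors over all 21 kept dorsal-ventral sections, or over the kept sections of the other series (69 and 37). DESeq2 1.42.0 and limma 3.58.1 served as alternatives. The fit was tested on simulated data. Totals were compared by exact permutation (scipy 1.17.1).

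Named genes are, per direction, the 2 called genes with the largest fold change, a higher-layer mean of 10 CPM or more and no overlap (failing calls, the 2 with the smallest p), and in each other comparison the 1 gene of the 13 called there with the largest change. Each further gene is said to be chosen after its values were seen. The sections, members and lists were chosen with earlier results of these data known. Marker and pathway lists could not be matched to identifiers, and their counts were not run. Sections of one series are neighbours, library numbers follow section order, and a drift with library order cannot be told apart from position. Intervals and floors cover counting error only.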

Additional observations from a re-analysis of the deposited data

Results flagged for a closer look

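DjGI018140_001 had 0.582 CPM in section 13 of the upper interior and 0 CPM in the other 3 upper sections, a sample far from the rest of its group. Section 13 was the deepest of the 4, where 3 counts correspond to 0.112 raw CPM (scaled to the section total alone), against 1.83, 0.217 and 0.199 raw CPM in sections 10, 11 and 12. Over the 20 groups looked at in this way, chance alone flags about 1 in 20. That rate does not apply here: with the other 3 sections at 0, any level above 0 would have been flagged.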

How the results depend on the processing

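The 13 genes lower in the upper interior had a negative log2 fold change in every alternative that tested them. They were chosen for that sign in largely the same sections, so the kept sign carries little weight. The number of calls did not hold. The calls numbered 34 with no filter on low counts, 124 with DESeq2 (45 higher and 79 lower) and 23 with the section total as a covariate. Limma-trend gave 3, and counts thinned to the lowest total gave 27. Sections 10 to 12 against sections 16 and 17, with section 18 still dropped, gave 8. Both no minimum total and 1 fit over all kept dorsal-ventral sections gave 0. The latter had 151 genes at an unadjusted p under 0.05. The 34, 124 and 23 each held all 13. Leaving out 1 section at a time gave 0 to 21. The other alternatives gave 10 to 13. The cause was not tested.

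In the outer dorsal against ventral comparison 27 calls became 41 with no filter and 198 with DESeq2, and with DESeq2 size factors the split was 5 higher and 14 lower, against 10 and 17. For anterior against posterior, 336 became 2384 with no filter, 222 with DESeq2 and 891 with the section total as a covariate. For the anterior-posterior middle against the ends, 219 (183 higher and 36 lower) became 1824, 110 and 538 under the same settings, the last with 242 higher and 296 lower. For the right-left middle against the sides, 163 became 363 with no filter, and the split with DESeq2 size factors was 90 higher and 58 lower, against 128 and 35. Those factors put the median log2 fold change of all genes at -0.04 there, against 0.12, and at -0.11 in the anterior-posterior middle comparison, against 0.01. The 13 genes kept their counts of positive and negative fold changes in all 4 comparisons under each of these alternatives. Of the 13 genes, the number called across these 4 alternatives was 2 to 7 in the outer dorsal-ventral, 9 to 11 in the anterior-posterior, 0 to 4 in the anterior-posterior middle and 7 to 8 in the right-left comparison. No paired analysis was possible because the labels give no replicate numbers. Section 10 is shallow, at 1643662 counts, and limits what can be seen at low levels in the upper interior.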

Other observations

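Genes called in the outer dorsal-ventral comparison and in the other series were also read in the interior comparison, as values with no test of the lists; over all genes the median log2 fold change, upper minus lower interior, was -0.01 and 51.0% were negative. At an unadjusted p under 0.05, 2.92% of all genes were lower and 3.11% higher in the upper interior, and 0.0775% were called lower. All 17 genes called lower in outer dorsal than in outer ventral sections were negative in the interior, with a median of -1.63, and 3 of them were called there. Of the 10 genes called in the other direction, 9 were positive, with a median of 0.34. The 180 genes higher in the middle of the anterior-posterior series were positive in 131 cases, with a median of 0.20 and none called. The 97 genes higher in the posterior part were positive in 62 cases, also with a median of 0.20. Of 233 genes higher in the anterior part, 113 were negative and 120 positive. At an unadjusted p under 0.05, 42 of them were lower and 26 higher in the upper interior. Of the 42, 9 were among the 13 called interior genes. The 123 genes called higher near the midline of the right-left series had a median of 0.08, and 29 were lower and 14 higher at that p. Of the 29, 8 were among the same 13.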
